A study of Mus musculus with 25 samples.

Results

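The E2F and retinoblastoma (pocket protein) family was followed in hematopoietic stem cells with and without *Znf143*, as the 10 genes *E2f1* to *E2f8*, *Rb1* and *Rbl2* among 23116 genes with RNA-seq values. The members were chosen by name, and all 10 were listed in the table and passed the filter of a mean FPKM (fragments on a gene, divided by its length and by the fragment total of the library) of at least 0.1, together with 19296 genes in all. HSLAM cells (LSK+ CD150+ CD48-), the phenotypic stem cell fraction of bone marrow, came from 3 *Znf143 f/f* x *Rosa26ERT2-Cre-* mice (*Znf143 f/f*) and 3 *Znf143 f/f* x *Rosa26ERT2-Cre+* mice (*Znf143 -/-*). Both groups were C57BL/6 males of 8 to 12 weeks that carried floxed alleles around exon 1 of *Znf143* and received tamoxifen at the middle dosage that the study tested, over 10 days. The study describes these mice as 3 pairs of littermates, but the labels do not say which libraries form a pair, and the main test did not use litter. Cre was expressed from the ubiquitous *Rosa26* locus, so that cells outside the stem cell compartment were also exposed to deletion, and only the *Znf143 -/-* mice carried Cre. The RNA-seq made up 6 of 25 samples in the series, and the ChIP-seq and HiC samples were not analysed here.

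E2F proteins bind DNA mostly as dimers with DP partners and set the transcription of genes for DNA replication and cell division. The pocket proteins pRB, p107 and p130 (encoded by *Rb1*, *Rbl1* and *Rbl2*) hold E2Fs in a repressive state until cyclin-dependent kinases phosphorylate them in G1. *E2f1*, *E2f2* and *E2f3* are named activators, E2F4 and E2F5 act with p107 and p130 as repressors in resting cells, E2F6 works with Polycomb proteins without a pocket protein, and E2F7 and E2F8 are atypical repressors that need no DP partner. Hematopoietic stem cells are largely quiescent and depend on this switch for entry into and exit from the cell cycle.

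The genes lay on 9 chromosomes and differed in the windows around their listed start sites, which are shown because ZNF143 and E2Fs act mostly at promoters. RefSeq promoter windows (GRCm38.p6, 250 bases before to 50 after a start site) were listed for 7 of 10 members, with 9 windows in all. *E2f4*, *E2f5* and *Rb1* had no entry. Windows of *E2f7* and *E2f1* are printed since these had the lowest p-values for a genotype difference among members with a window, and those of *E2f2* and *Rbl2* were picked after a search for motif words. Capitals mark E2F words in *E2f2* and *E2f7* (TTTGGCGC, TTTCGCGC, TTTCCCGC, TTTGCCGC, TTTCGCGG and TTTGGCGG were searched on both strands) and a longer ZNF143 word in *Rbl2*, ACTACA followed after 1 base of any kind by TTCCCAG. The windows were chr10:110745189-110745488 on the plus strand for *E2f7*, chr2:154569377-154569676 on the minus strand for *E2f1*, chr4:136172024-136172323 on the plus strand for *E2f2* and chr8:91069807-91070106 on the plus strand for *Rbl2*.
E2f7: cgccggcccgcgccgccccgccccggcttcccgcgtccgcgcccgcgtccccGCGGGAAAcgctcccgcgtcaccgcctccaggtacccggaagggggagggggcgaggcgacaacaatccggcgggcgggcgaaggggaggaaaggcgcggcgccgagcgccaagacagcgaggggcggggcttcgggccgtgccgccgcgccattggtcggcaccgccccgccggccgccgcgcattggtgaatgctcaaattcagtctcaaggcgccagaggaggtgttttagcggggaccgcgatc
E2f1: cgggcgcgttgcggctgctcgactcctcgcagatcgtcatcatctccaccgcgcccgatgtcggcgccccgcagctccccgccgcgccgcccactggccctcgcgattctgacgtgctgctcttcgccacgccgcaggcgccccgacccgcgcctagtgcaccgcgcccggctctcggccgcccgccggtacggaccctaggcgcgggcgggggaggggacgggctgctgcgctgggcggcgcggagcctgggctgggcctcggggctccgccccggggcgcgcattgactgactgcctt
E2f2: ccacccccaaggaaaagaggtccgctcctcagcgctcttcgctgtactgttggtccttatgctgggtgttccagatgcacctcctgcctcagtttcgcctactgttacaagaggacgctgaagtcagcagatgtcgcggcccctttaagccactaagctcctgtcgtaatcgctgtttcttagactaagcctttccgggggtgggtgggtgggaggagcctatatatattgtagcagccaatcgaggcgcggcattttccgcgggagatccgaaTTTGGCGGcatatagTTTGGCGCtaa
Rbl2: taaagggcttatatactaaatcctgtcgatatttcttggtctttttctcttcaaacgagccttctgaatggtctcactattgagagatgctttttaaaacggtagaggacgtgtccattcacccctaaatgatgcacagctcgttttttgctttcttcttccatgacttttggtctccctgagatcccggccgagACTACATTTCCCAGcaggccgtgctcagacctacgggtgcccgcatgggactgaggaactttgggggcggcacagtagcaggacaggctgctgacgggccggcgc

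An E2F word was present in 3 of the 9 windows of members, from 3 of the 7 members with a window, and in 3.02% of 32851 promoter windows. The *E2f7* window held 1 on the minus strand, 198 bases before the start site. The *E2f2* window held 2, starting 24 and 39 bases after the start site. A window of *E2f3* held another 2, with 1 starting 11 bases before and 1 starting 3 bases after the start site. The other windows of members held no E2F word. However, the RefSeq start site used for *E2f1* lay 466 bases downstream of the start of the gene in GENCODE. That window lay inside the gene, and the region before the GENCODE start of *E2f1* was not searched. The windows of *E2f2* and *E2f3* without a word were also inside the genes, with start sites 8388 and 1672 bases downstream. Of the shorter words found in ZNF143 sites, ACTACAA was present in 3.24% of all windows and in none of the members, and TCCCAG in 31.8% of all windows and in 1 member, *Rbl2*. There it was part of the longer word, which began 55 bases before the start site. The longer word was defined after the *Rbl2* window had been read, and 0.536% of all windows held it. *Rbl2* was also the 1 member in the study's list of direct ZNF143 targets, a list chosen in part by expression in these same samples, so that it gave no independent evidence of a direction.

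Fragments on genes numbered from 38643255 to 57895793 per library. Levels are given as rescaled FPKM, that is FPKM divided by size factors from medians of ratios (0.906 to 1.20), because *Znf143 -/-* library 3 had been deposited with the divisor of library 2, which is too small for its fragments by a factor of 1.20. *Zfp143*, the mouse symbol of *Znf143*, was 3.09, 4.45 and 3.68 rescaled FPKM in *Znf143 f/f* and 0.156, 0.299 and 0.272 in *Znf143 -/-* libraries (log2 fold change -3.50 ± 0.24 SE, limma adjusted p = 0.00101). The sample labels name the deleted genotype as CTCF KO, whereas *Ctcf* was 31.2 ± 1.34 and 28.6 ± 2.87 (SD, n = 3 each) (limma adjusted p = 0.468). The libraries did not differ evenly. A chi-square of fragments per gene, which counting noise alone would set at 1, was 2.33 between *Znf143 f/f* libraries 1 and 3 and 2.62 between *Znf143 -/-* libraries 2 and 3, against 20.4 to 42.2 for the other 13 pairs. These close pairs were counted as separate libraries, as the labels give them, and each main result was also computed with each close pair averaged. *Znf143 f/f* library 2 and *Znf143 -/-* library 1 stood apart from their groups, in part by gene length. Among the shortest of 3 equal classes of genes (median 1141 bases) their level exceeded that of the other libraries of the group by a median of 0.18 and 0.23 on the log2 scale. The median difference was -0.06 and -0.13 in the middle class (median 3463 bases), and -0.10 and -0.09 in the longest (median 6977 bases). For *Znf143 -/-* library 1 it was thus not graded by length beyond the short class.

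Over the 6 libraries, *E2f4* was the most abundant member, with a mean of 34.3 rescaled FPKM, a value per kilobase that can be compared between genes. *E2f1* (18.7) and *E2f6* (15.3) followed, and *E2f1* exceeded *E2f6* in 6 of 6 libraries although their ranges overlapped. *E2f5* averaged 8.45. *Rbl2* (3.95) and *E2f3* (3.79) could not be ordered, with *Rbl2* higher in 3 of 6 libraries. *Rb1* (2.51), *E2f8* (2.30), *E2f2* (2.25) and *E2f7* (1.95) each overlapped the next in range. Between 401 and 5474 fragments lay behind a member's value in a library.

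**Figure D1:**
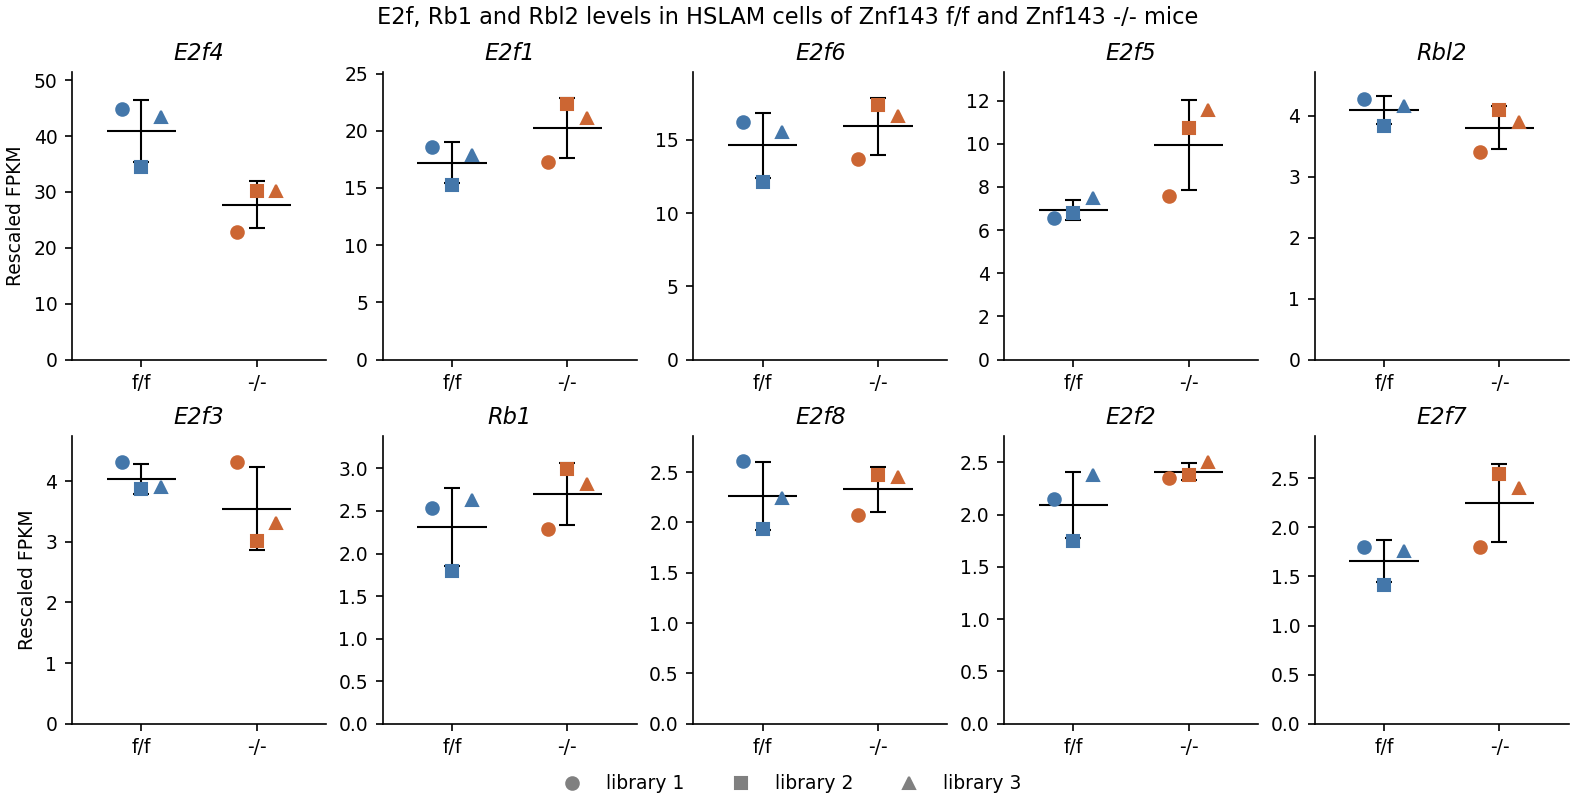
Rescaled FPKM (y axis, from 0) of the 10 members in *Znf143 f/f* (blue) and *Znf143 -/-* (orange) libraries, ordered by mean level, with marker shape giving the library number and bars the mean ± SD of 3 libraries. The groups do not overlap for *E2f4* and *E2f5*, and *Znf143 f/f* library 2 and *Znf143 -/-* library 1 are the lowest of their group in 9 of 10 members each.

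No member passed an adjusted p of 0.05 in limma, against 6% of all genes tested (1157 of 19296). At an unadjusted p under 0.05 there were 2 of 10 members, *E2f4* and *E2f5*, against 24.2% of all genes. The groups did not overlap for the same 2 of 10, against 30.8% of all genes. Both shares of members lie near or below the background, and the 2 genes are described for their size and direction. Of the members, 7 had a log2 fold change above 0 and 3 below, and their median was 0.17 against 0.01 for all genes. With FPKM as deposited, the median of all genes moved to 0.11 and that of the members to 0.28. An exact two-sided permutation test of 3 against 3 libraries cannot give a p below 0.1, which it gave for *E2f4* and *E2f5*, and it gave 0.2 to 0.7 for the other 8 members.

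*E2f4* (chr8:105297663-105305370, plus strand, GRCm38), the main E2F of resting cells, was 44.8, 34.5 and 43.3 rescaled FPKM in *Znf143 f/f*, against 22.8, 30.2 and 30.1 in *Znf143 -/-* libraries. Each *Znf143 -/-* value was below each *Znf143 f/f* value, and the mean was 67.8% of that in *Znf143 f/f*. The log2 fold change was -0.56 ± 0.15 (SE), with an interval at 95% from -0.93 to -0.20 and a limma adjusted p of 0.0835. It passed the threshold when *Znf143 f/f* library 2 was left out (-0.68, limma adjusted p = 0.0452). Without *Znf143 -/-* library 1 it was -0.43 (limma adjusted p = 0.0927), and with close pairs averaged -0.57 (limma adjusted p = 0.467).

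*E2f5* (chr3:14578641-14606309, plus strand), the other E2F that relies on pocket proteins, differed in the opposite direction. Its level was 6.58, 6.80 and 7.47 in *Znf143 f/f* and 7.58, 10.7 and 11.6 in *Znf143 -/-* libraries, where library 1 lay just above the *Znf143 f/f* range and the close pair well above it. The log2 fold change was 0.49 ± 0.17 (SE), with an interval at 95% from 0.09 to 0.89 and a limma adjusted p of 0.140. It passed the threshold without *Znf143 -/-* library 1 (0.67, limma adjusted p = 0.0178), was 0.48 without *Znf143 f/f* library 2 (limma adjusted p = 0.182), and was 0.41 with close pairs averaged (limma adjusted p = 0.667). *E2f5* shares exon sequence with *1810022K09Rik* on the opposite strand, and the library kit does not mark strand, so that reads of both cannot be told apart where they overlap. *1810022K09Rik* was 100.1, 157 and 109.9 in *Znf143 f/f* and 182.0, 114 and 125 in *Znf143 -/-* libraries (means 122 and 140, limma adjusted p = 0.663). The part of such shared reads in the values of *E2f5* was not tested. *E2f5* (1782 bases) and *E2f4* (2452 bases) are the shortest members as listed, and the part of gene length in their differences was not tested. The median log2 fold change between genotypes was 0.01, 0.05 and -0.04 in the short, middle and long class of genes.

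The activators did not pass the test. *E2f1* (chr2:154559407-154569892, minus strand) was 18.6, 15.2 and 17.8 in *Znf143 f/f* and 17.3, 22.3 and 21.1 in *Znf143 -/-* libraries (log2 fold change 0.23, 95% interval -0.08 to 0.54, limma adjusted p = 0.336). *E2f2* (chr4:136172394-136196057, plus strand), an activator prominent in blood cells, was 2.15, 1.75 and 2.38 against 2.35, 2.37 and 2.51 (0.21, interval -0.15 to 0.56, limma adjusted p = 0.442). For both genes *Znf143 -/-* library 1 lay inside the *Znf143 f/f* range. *E2f3* (chr13:29906575-29986063, minus strand) was 4.31, 3.87 and 3.91 against 4.32, 3.01 and 3.30 (-0.20, interval -0.57 to 0.17, limma adjusted p = 0.493). It was the member with *Znf143 -/-* library 1 at the top of its group, and the close pair of *Znf143 -/-* libraries lay below all *Znf143 f/f* libraries.

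Among E2Fs that act without pocket proteins, *E2f7* (chr10:110745439-110787384, plus strand) had the largest difference by value, with 1.80, 1.41 and 1.76 in *Znf143 f/f* and 1.80, 2.55 and 2.41 in *Znf143 -/-* libraries. Its log2 fold change was 0.41 ± 0.18 (SE, 95% interval -0.03 to 0.85, limma adjusted p = 0.229), and *Znf143 -/-* library 1 equalled the highest *Znf143 f/f* library within rounding. *E2f8* (chr7:48866429-48881596, minus strand), its close relative, was 2.61, 1.93 and 2.25 against 2.07, 2.47 and 2.45 (0.05, interval -0.33 to 0.42, limma adjusted p = 0.889). *E2f6* (chr12:16810963-16839742, plus strand) was 16.2, 12.1 and 15.5 against 13.7, 17.4 and 16.6 (0.13, interval -0.23 to 0.48, limma adjusted p = 0.656). The genotypes overlapped for all 3 genes. Without *Znf143 f/f* library 2 the log2 fold change was -0.06 for *E2f8* and -0.0045 for *E2f6*, so that neither gene had a settled direction.

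The pocket protein genes also overlapped between genotypes. *Rb1* (chr14:73183673-73325822, minus strand), which encodes pRB, was 2.53, 1.79 and 2.63 in *Znf143 f/f* and 2.29, 2.99 and 2.82 in *Znf143 -/-* libraries (log2 fold change 0.22, 95% interval -0.23 to 0.67, limma adjusted p = 0.525). *Rbl2* (chr8:91070057-91123844, plus strand), which encodes p130, the pocket protein of quiescent cells, was 4.27, 3.83 and 4.17 against 3.41, 4.10 and 3.90 (-0.11, interval -0.38 to 0.17, limma adjusted p = 0.632). *Rbl2* is the gene with the ZNF143 word in the window shown above, and its mean in *Znf143 -/-* cells was 93.0% of that in *Znf143 f/f* cells. With FPKM as deposited its log2 fold change was 0.0060. *Rb1*, *Rbl2*, *E2f7* and *E2f8* also share exon sequence with genes on the opposite strand (for *Rb1*, *Lpar6* and *Rcbtb2*, and for *Rbl2*, *Aktip*), so that the reads there cannot be told apart.

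**Figure D2:**
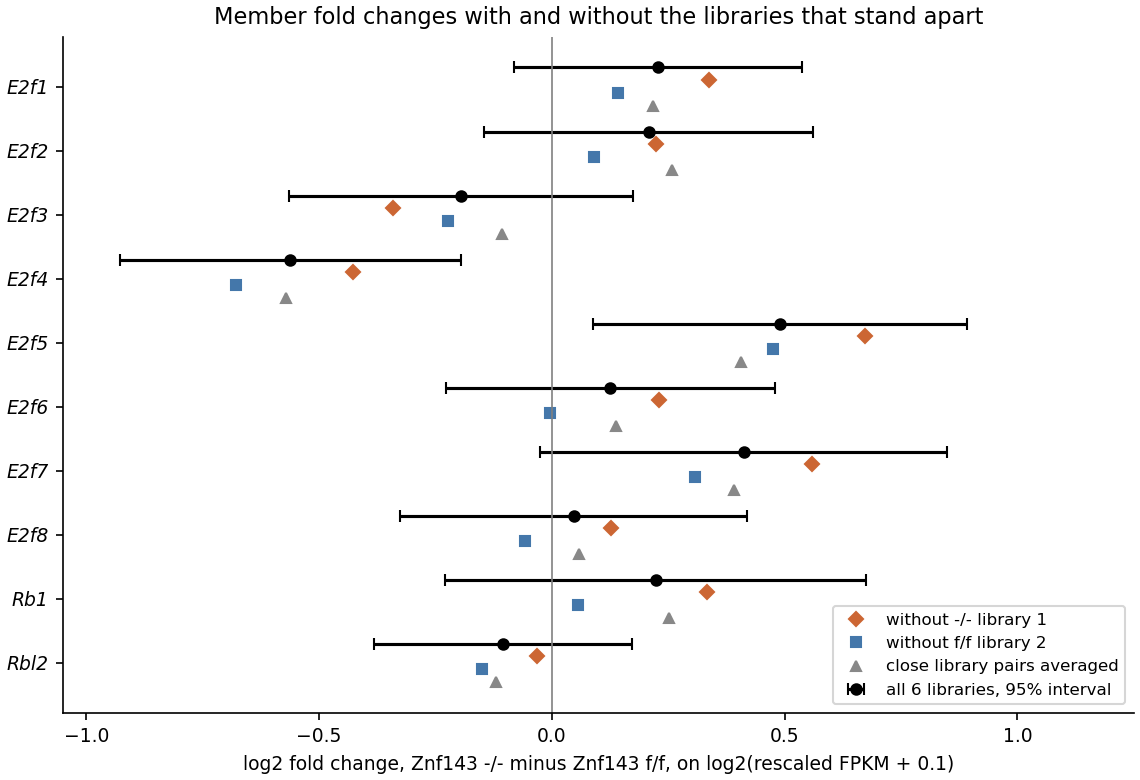
Log2 fold change of each member (x axis, *Znf143 -/-* minus *Znf143 f/f*, on log2 of rescaled FPKM + 0.1), with the limma estimate and its 95% interval over 6 libraries (black) and the estimates without *Znf143 -/-* library 1 (orange), without *Znf143 f/f* library 2 (blue) and with close library pairs averaged (gray). The intervals of *E2f4* and *E2f5* exclude 0 without adjustment for multiple genes, and those of the other 8 members include it.

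*Znf143 f/f* library 2 was the lowest of its group in 9 of 10 members, against 44.6% of all genes, and *Znf143 -/-* library 1 was the lowest of its group in 9 of 10, against 45.2% of all genes. *Znf143 -/-* library 1 lay inside the *Znf143 f/f* range for 6 of 10 members, against 36.9% of all genes. The summed level of the 8 *E2f* genes was 97.1, 77.6 and 94.4 rescaled FPKM in *Znf143 f/f* and 71.9, 91.0 and 90.1 in *Znf143 -/-* libraries. The members thus moved up and down together between libraries of 1 genotype, and what sets these libraries apart was not tested.

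Shares within a library do not depend on its scaling. They were computed after the levels had been seen and are given as a description with no test. *E2f4* made up 46.1, 44.5 and 45.9% of the summed level of the 8 *E2f* genes in *Znf143 f/f*, against 31.7, 33.2 and 33.4% in *Znf143 -/-* libraries (45.5 ± 0.88 against 32.8 ± 0.92, SD, n = 3 each). The shares did not overlap between genotypes, and *Znf143 f/f* library 2 and *Znf143 -/-* library 1 had the lowest share of their group here too. Each SD includes a close pair of libraries, and shares with close pairs averaged were not computed. *E2f1* made up 19.2 ± 0.37% and 24.0 ± 0.55%, *E2f6* 16.2 ± 0.60% and 18.9 ± 0.35%, and *E2f5* 7.82 ± 1.00% and 11.7 ± 1.14%. Shares sum to a fixed total, so that a lower share of *E2f4* raises the others, and 7 of 8 did not overlap. With *E2f4* left out of the sum, 2 of 7 did not overlap, near the 30.8% of all genes that did not overlap by level. By value, *E2f7* was higher (3.39 ± 0.097% and 3.95 ± 0.27%) and *E2f8* lower (4.62 ± 0.32% and 4.12 ± 0.088%) in *Znf143 -/-* libraries. In that sum the share of *E2f1* was 35.3 ± 0.33% in *Znf143 f/f* and 35.7 ± 0.85% in *Znf143 -/-* libraries.

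**Figure D3:**
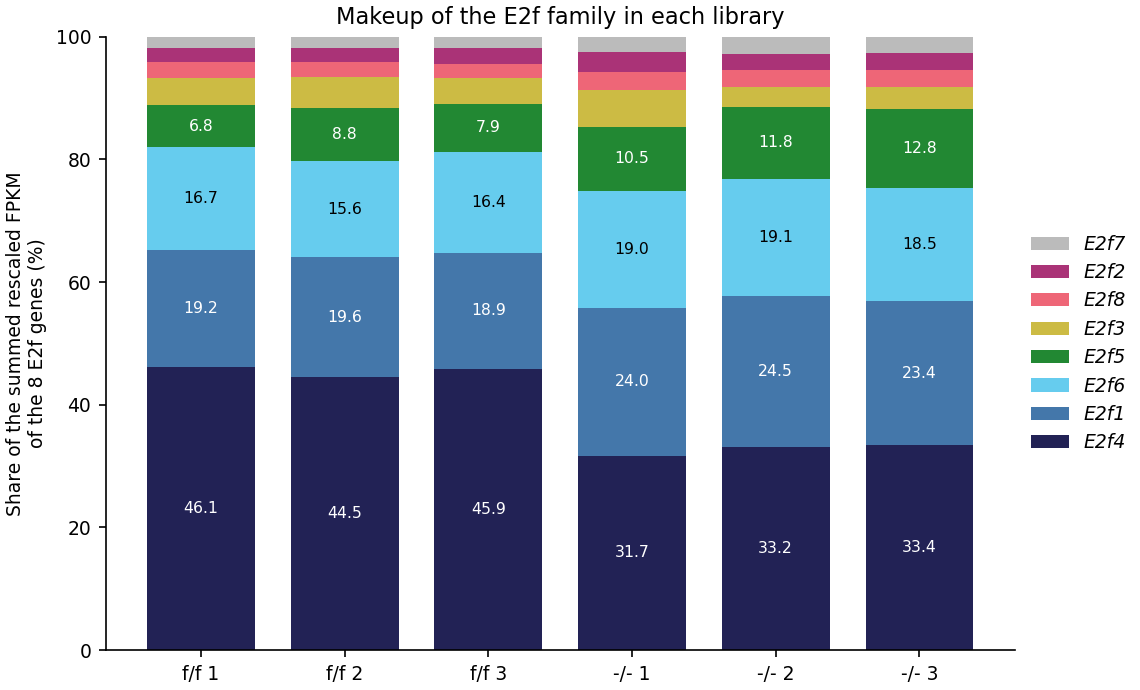
Share (y axis, %) of each *E2f* gene in the summed rescaled FPKM of the 8 *E2f* genes, for each of the 3 *Znf143 f/f* (f/f) and 3 *Znf143 -/-* (-/-) libraries, as stacked bars that reach 100%. *E2f4*, at the bottom, takes 44.5 to 46.1% in *Znf143 f/f* and 31.7 to 33.4% in *Znf143 -/-* libraries.

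Ratios between members restate the values behind the shares and add no separate evidence. *E2f4* was 6.80, 5.08 and 5.80 times the level of *E2f5* in *Znf143 f/f* and 3.01, 2.82 and 2.61 times in *Znf143 -/-* libraries, a 2.10-fold lower mean ratio. *E2f4* against the sum of the activators was 1.79, 1.66 and 1.80 in *Znf143 f/f* and 0.952, 1.09 and 1.12 in *Znf143 -/-* libraries. By transcript level, *E2f4* thus exceeded the 3 activators together in each *Znf143 f/f* library and lay close to their sum in *Znf143 -/-* libraries. Protein was not measured here, none of these genes passed the adjusted threshold, and the part of gene length in the ratios was not tested. The ratio of *E2f8* to *E2f7* was 1.36 ± 0.085 and 1.05 ± 0.096, and that of *Rbl2* to *Rb1* was 1.80 ± 0.30 and 1.41 ± 0.064 (SD, n = 3 each). That of *E2f6* to *E2f1* was 0.846 ± 0.045 and 0.786 ± 0.0065. None of the computed ratios overlapped between genotypes, even where the means were this close. The share of all gene pairs without overlap was not computed. The pairs of members were picked after the values had been seen and are not tested.

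The other genes of the pathway were taken from 7 lists of 107 genes, of which 100 were tested. At an adjusted p of 0.05, 5 rose and 3 fell (8% of those tested, against 6% of all genes), and the median log2 fold change was 0.07. With close library pairs averaged none of these 8 passed (limma adjusted p of 0.131 to 0.613, against 47 calls, 0.244% of all genes, and 1913 genes, 9.91%, at an unadjusted p under 0.05), although each kept its direction. *Cdkn1a* and *Pcgf6* were called with each single library left out, and the other 6 lost their call in at least 1 case.

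Upstream of the pocket proteins, 3 of 13 tested G1 cyclins, kinases and inhibitors rose and none fell, where 3.01% of all genes rose and 2.99% fell. At an unadjusted p under 0.05 there were 5 (38.5%, against 24.2% of all genes). The inhibitor gene *Cdkn1b* was lower without overlap but not called (2.36, 2.92 and 2.41 against 2.02, 1.59 and 1.33, log2 fold change -0.62, limma adjusted p = 0.101). *Cdkn1a*, which encodes the CDK inhibitor p21, was 18.0, 16.8 and 17.3 rescaled FPKM in *Znf143 f/f* and 33.0, 30.9 and 30.7 in *Znf143 -/-* libraries (log2 fold change 0.86 ± 0.08 SE, limma adjusted p = 0.00252). *Ccne1*, the cyclin E1 gene and itself an E2F target, was 5.87, 6.29 and 5.71 against 8.94, 9.40 and 9.49 (0.63 ± 0.09, limma adjusted p = 0.0124). *Cdk6*, a kinase of pRB, was 10.6, 8.06 and 10.2 against 17.4, 14.1 and 14.2 (0.66 ± 0.14, limma adjusted p = 0.0459). With FPKM as deposited the call of *Cdk6* was lost (0.77, limma adjusted p = 0.0533) and those of *Cdkn1a* and *Ccne1* were not. The SD in *Znf143 f/f* and *Znf143 -/-* libraries was 0.61 and 1.27 for *Cdkn1a*, and 0.30 and 0.30 for *Ccne1*. The test by which these genes were named favors a small spread.

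Of 9 DP partners and subunits of DREAM, the complex in which p130 and E2F4 repress cell cycle genes, none passed in limma (6% of all genes did) and 1 had an unadjusted p under 0.05. The lowest p-values were those of *Mybl2*, the B-Myb gene and an E2F target (0.35, limma adjusted p = 0.145), and *Tfdp1*, the main DP partner (0.25, limma adjusted p = 0.234). The median over this list was 0.0034.

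Of 35 tested G1/S targets of E2F, 1 rose and 1 fell (3.01% and 2.99% of all genes did), with a median log2 fold change of 0.11. *Pcna*, the replication clamp, was 103, 111 and 107 in *Znf143 f/f* and 132, 141 and 138 in *Znf143 -/-* libraries (0.36 ± 0.08, limma adjusted p = 0.0491). *Prim1*, a primase subunit, was 29.8, 30.3 and 29.6 against 20.9, 23.2 and 23.1 (-0.42 ± 0.08, limma adjusted p = 0.0315). Of the list, 12 (34.3%, against 24.2% of all genes) had an unadjusted p under 0.05, and 25 had a log2 fold change above 0. None of 24 G2/M targets of DREAM passed, 2 (8.33%) had an unadjusted p under 0.05, and the median was 0.12. These were *Cdc25c*, the mitotic phosphatase (0.36, limma adjusted p = 0.0750), and *Cdk1*, the mitotic kinase (0.21, limma adjusted p = 0.186). With FPKM as deposited, on which all genes have a median of 0.11, neither gene was called: *Pcna* was at 0.47 (limma adjusted p = 0.126) and *Prim1* at -0.30 (limma adjusted p = 0.366).

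In the list of subunits of the E2F6 Polycomb complex, 2 of 11 fell and none rose, where 2.99% of all genes fell and 3.01% rose. At an unadjusted p under 0.05 there were 5 (45.5%, against 24.2% of all genes). *Pcgf6*, the Polycomb ring finger subunit of this complex, was 18.5, 15.9 and 19.7 in *Znf143 f/f* and 9.14, 9.68 and 10.2 in *Znf143 -/-* libraries (-0.89 ± 0.11, limma adjusted p = 0.00771). *Max*, which binds DNA there as a dimer with MGA and is also the partner of MYC, was 15.5, 13.4 and 15.7 against 11.1, 8.98 and 9.84 (-0.57 ± 0.11, limma adjusted p = 0.0372). With FPKM as deposited neither was called, with *Pcgf6* at -0.78 (limma adjusted p = 0.0618) and *Max* at -0.46 (limma adjusted p = 0.198). Of 6 germline genes repressed by E2F6, 2 passed the filter and neither was called: *Stag3* was listed with 0.91 (limma adjusted p = 0.223) and *Slc25a31* with 0.32 (limma adjusted p = 0.822). Among 6 tested apoptotic targets, 1 rose, where 3.01% of all genes did. *Pmaip1*, the NOXA gene, was 0.0987, 0.139 and 0.0430 in *Znf143 f/f* and 0.497, 0.363 and 0.416 in *Znf143 -/-* libraries (1.46 ± 0.29, limma adjusted p = 0.0380). Its mean in *Znf143 f/f* was 0.0935, from 5 to 18 fragments in a library. *Pmaip1* thus passed the filter of 0.1 only through the *Znf143 -/-* libraries, where it was high, and its call is no independent support. At this low level its log2 fold change depended on the pseudocount, with 2.18 at 0.01 (limma adjusted p = 0.0588, not called) and 0.38 at 1 (limma adjusted p = 0.0324).

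**Figure D4:**
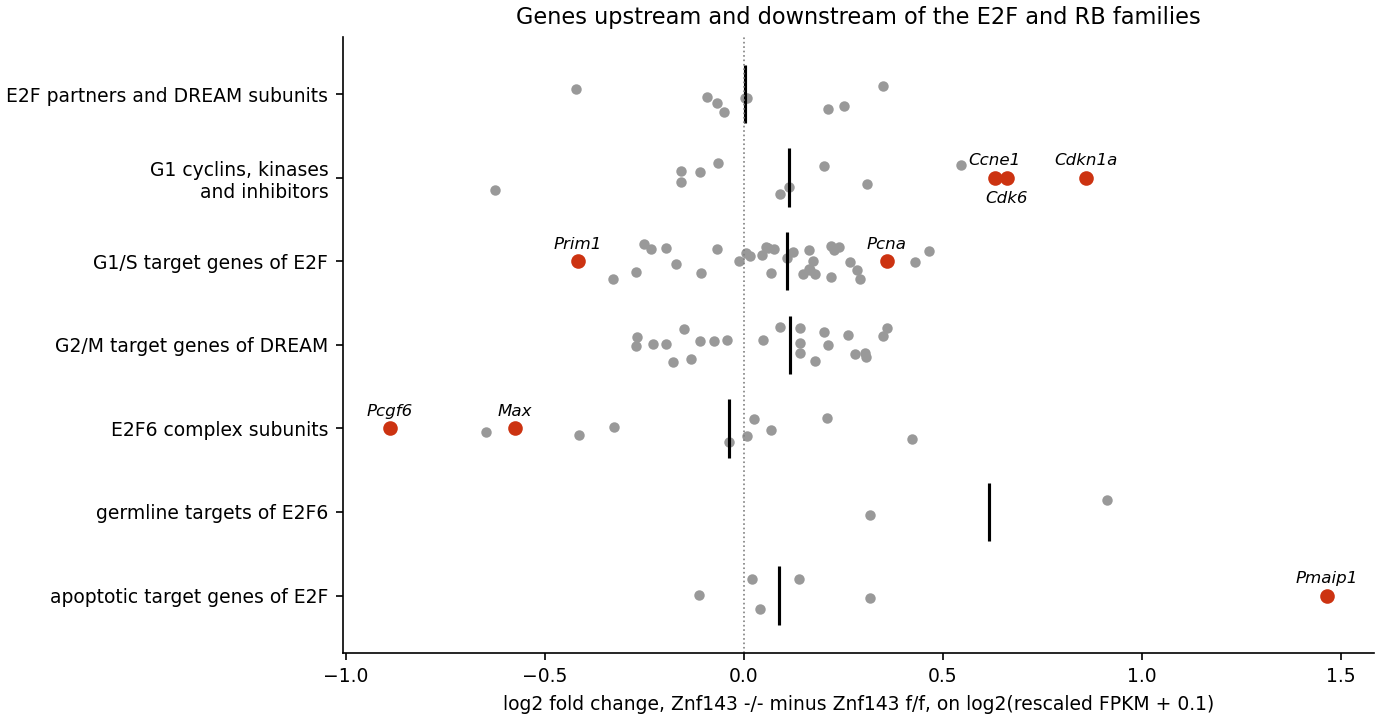
Log2 fold change (x axis, *Znf143 -/-* minus *Znf143 f/f*, on log2 of rescaled FPKM + 0.1) of the tested genes of 7 pathway lists, 1 point per gene, with black lines at list medians and the 8 genes with an adjusted p under 0.05 in red and named. Called genes lie on both sides of 0, and the medians of the lists with 9 or more tested genes lie between -0.04 and 0.12.

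Some markers of cell states moved with genotype as well. Their calls are given from the main fit alone, in which 6% of all genes passed. In a bulk sample, fewer cells of a type and less RNA per cell cannot be told apart. Of 10 stem cell markers, *Ly6a* (Sca-1, part of the sorting gate) rose and *Mecom* fell, 7 had a log2 fold change below 0, and the median was -0.34. Their summed level was 485 to 540 rescaled FPKM in *Znf143 f/f* and 764 to 811 in *Znf143 -/-* libraries, and for the 9 genes other than *Ly6a* it was 243 to 251 and 169 to 221. Of 3 multipotent progenitor markers, *Cd48* and *Flt3* rose (sum 44.4 to 47.9 and 65.3 to 67.2), although the cells were sorted as CD48-. Of 7 granulocyte and monocyte markers *Elane*, *Ctsg* and *S100a8* rose (sum 736 to 813 and 653 to 801). *Lyz2*, the most abundant of them, went the other way without a call (564, 570 and 533 against 431, 430 and 417, limma adjusted p = 0.0731). Of 7 erythroid markers *Gata1* rose and *Hbb-bt* fell (sum 75.8 to 211 and 82.0 to 85.0). The upper end in *Znf143 f/f* came from *Car1* in library 2, at 142 against 15.1 and 21.9 in libraries 1 and 3. None of 5 megakaryocyte markers passed in limma, with 3 at an unadjusted p under 0.05 (sum 543 to 623 and 675 to 1016). Of 3 tested lymphoid markers *Dntt* rose (sum of the listed markers 3.56 to 3.93 and 9.46 to 10.7), and 5 of the lymphoid markers were at 0 in at least 1 library. The stromal markers *Col1a1*, *Cxcl12* and *Lepr* summed to 1.27 or less in each library, and the endothelial marker *Cdh5* had no value. The part of these cell states in the makeup of the E2f family was not tested.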

How the data were processed

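RNA-seq of HSLAM cells was measured in 3 *Znf143 f/f* and 3 *Znf143 -/-* mice, which the study describes as biological replicates, with SMART-Seq v4 and Nextera XT libraries sequenced as paired-end reads of 76 bases. The authors used TrimGalore 0.6.0 for trimming, STAR 2.5.1b_modified for alignment to GRCm38, FeatureCounts 1.5.2 for fragments per gene and DESeq2 1.22.2 for the comparison of genotypes, and they deposited FPKM and the listed length for each gene. The deposited columns of the authors' comparison (mean normalized count as a signal, log2 fold change and its error, the test score, p-value and adjusted p-value) were not used. The deposited FPKM times length gave whole fragments in 99.986% of 138696 values (within 0.05 of a fragment), from which library totals and the divisors were recovered. The counting precision of a value depends on the fragments of that gene in a library, which were 401 to 5474 for members. Libraries held 38643255 to 57895793 fragments, and 3 fragments were taken as the floor.

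Size factors were medians of ratios, by which FPKM were divided (19046 genes above 0 in all libraries). Genes with a mean deposited FPKM of at least 0.1 were tested on log2(rescaled FPKM + 0.1), a scale that understates the change of low genes, with limma 3.58.1 in R 4.3.3 (lmFit, eBayes with a variance trend) and Benjamini-Hochberg adjustment over 19296 genes. The script was tested on simulated data. Alternatives were FPKM as deposited, each library's own fragment total, no filter or a higher one (mean FPKM of at least 1), a pseudocount of 0.01 or 1, voom on recovered fragments, no variance trend, the replicate number as a block and each library left out. Averaging of close library pairs was added after the data were seen. Libraries were grouped by their labels. Coordinates and exon overlaps are from GENCODE M21 (GRCm38), promoter windows from RefSeq. Tables and plots were made in Python 3.11.15 (pandas 2.3.3, numpy 2.4.6, scipy 1.17.1, matplotlib 3.10.9).

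The members and lists were chosen with earlier results of these data known. All 10 members are named. Of each pathway list, genes with an adjusted p under 0.05 are named, and where there is none, the 2 with the lowest p are given by value. Promoters were to be shown for the 4 members with the lowest p, of which 2 had a window, and 2 more were chosen after the motif search.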

Additional observations from a re-analysis of the deposited data

How the results depend on the processing

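The number of members called was 0 under each of the 10 alternatives that kept the libraries or averaged them, and 0 to 1 with 1 library left out. With 1 library left out, the log2 fold change of *E2f6* ranged from -0.0045 to 0.23 and that of *E2f8* from -0.057 to 0.15, both lowest without *Znf143 f/f* library 2, and it turned direction for *Rbl2* with FPKM as deposited (0.0060). Genes called numbered 47 with close library pairs averaged, 191 with the replicate number as a block and 223 to 2240 with 1 library left out, lowest without *Znf143 -/-* library 3 and highest without *Znf143 f/f* library 2. Of all calls, 529 of 833 were higher with FPKM as deposited, against 580 of 1157. Pathway genes called numbered 3 with FPKM as deposited, 4 with own fragment totals, 5 with a pseudocount of 0.01, 4 without the variance trend, 0 with close pairs averaged, 1 with the replicate block and 2 to 17 with 1 library left out, highest without *Znf143 -/-* library 1. Same-numbered libraries did not deviate together (correlations of -0.09, -0.09 and 0.03). With a library that stands apart in each group, these values cannot show whether the numbers follow the littermate pairs. The causes of these shifts were not tested.

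With 3 libraries per genotype, the 95% intervals of the members reached 0.28 to 0.45 on the log2 scale to either side before adjustment, and a call at the adjusted threshold needs a larger difference for the same spread. The close library pairs differ by 2.33 and 2.62 in chi-square per gene, where counting noise alone gives 1, and with each pair counted as 1 library the comparison is of 2 against 2. All p-values measure the spread between these libraries.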
